A study of Mus musculus with 19 samples.

Results

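The aorta of fibrillin-1 hypomorphic mice was followed from 16 to 30 days of age, using 7 of the 19 RNA sequencing libraries of the series. The hypomorph is homozygous for the Fbn1 mgR allele, from which too little fibrillin-1 is made, and is a mouse model of early and severe Marfan syndrome. All mice were labelled male and C57BL/6, and the tissue was labelled aorta. The libraries were chosen by their labels of genotype and age, which gave 3 hypomorphic libraries at 16 days and 4 at 30 days. Titles of the 30-day and 60-day libraries carry the letters nt, read here as not treated. The 16-day titles carry no such mark. Wild-type aorta of the same ages, also 3 and 4 libraries, is set beside them, as are 3 hypomorphic libraries at 60 days. The deposited tables give 1 pooled value per gene and group, in FPKM (fragment numbers divided by transcript length and by all mapped fragments). No value therefore has an SD or a test, sequencing depth is unknown, and how many animals stand behind a library is not given in the sources used here. The ages came from separately normalised tables, so a difference of age and of table cannot be told apart. The library titles name no batch, and an effect of batch was not tested.

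Fibrillin-1 builds the microfibrils that scaffold elastic fibres and that hold latent TGF-beta, a growth factor for matrix production, in the vessel wall. Smooth muscle cells lay down most of the elastic lamellae around birth, and production then declines while the wall goes on growing. In Marfan syndrome the elastic lamellae of the ascending aorta break up, inflammatory cells enter the wall and the vessel widens. Cytokines and chemokines call blood monocytes and neutrophils into a tissue, interferons switch on antiviral genes, and the plasminogen and metalloprotease systems with their inhibitors remodel matrix.

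The hypomorph values of 30 days were multiplied by 1.00068, the median ratio over the 9485 genes with at least 5 FPKM at both ages. The quantity compared was log2(FPKM + 1) at 30 days minus that at 16 days, called the age difference below, which understates changes of low genes. Of 37668 genes, 15277 were listed at 0 at either age and 8357 had a mean under 1 FPKM, which left 14034. A gene was called where the age difference was at least 1 in size, a 2-fold change of FPKM + 1. By this rule 310 genes, 2.21% of those compared, were called higher at 30 days and 77, 0.549%, were called lower. The median age difference over all genes was -0.0028, and the middle 90% of genes lay between -0.47 and 0.67. Of the genes called higher, 249 had at least 1 FPKM already at 16 days. The listed spans of some genes overlap those of others, and reads can then be shared between them, since it is not given in the sources used here whether the counting used the strand. Among the compared genes named below this concerns Ace, Adam12, Adam8, Alas2, Atp5b, B2m, Bhlhe40, C7, Ccl2, Ccn2, Cd74, Cdc20, Cidea, Ckm, Col12a1, Col4a1, Col4a2, Csf1r, Ctss, Egr1, Fkbp5, Fn1, H19, Icam1, Igf2, Il1b, Il1r2, Irf7, Irf9, Mcm7, Mertk, Mfap4, Mmp12, Myh6, Nppa, Pecam1, Pln, Selp, Sparcl1, Tagln, Tgfb2, Timp4, Top2a and Vcan, besides those where it is stated.

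The targeted gene and the tissue label were checked first. Fbn1 (ENSMUSG00000027204, mm9 chr2:125126329-125333729 as listed), overlapped there by 1 other listed gene, stood at 41.4 FPKM at 16 days and 40.9 at 30 days in the hypomorph, against 146 and 135 in wild type. Its age differences were -0.017 and -0.11, so the hypomorph was low to a like degree at both ages. Of 14 markers of smooth muscle, elastic matrix, endothelium and adventitia, 12 were compared and 0 were called. With 2.21% of all genes called higher and 0.549% lower, that is near the share over all genes. Tagln, an actin-binding protein of smooth muscle, was at 3327 and 3463 FPKM, and Pecam1, a junction protein of endothelium, at 125 and 128 FPKM. Acta2, the smooth muscle actin, and Eln, the elastin gene, were listed at 0 at either or both ages, as were Col1a1, Col1a2, Col3a1, Sparc, Bgn and Flna. These are among the most abundant transcripts of an artery, so 0 can be a failed estimate, and such genes are not compared here.

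**Figure D1:**
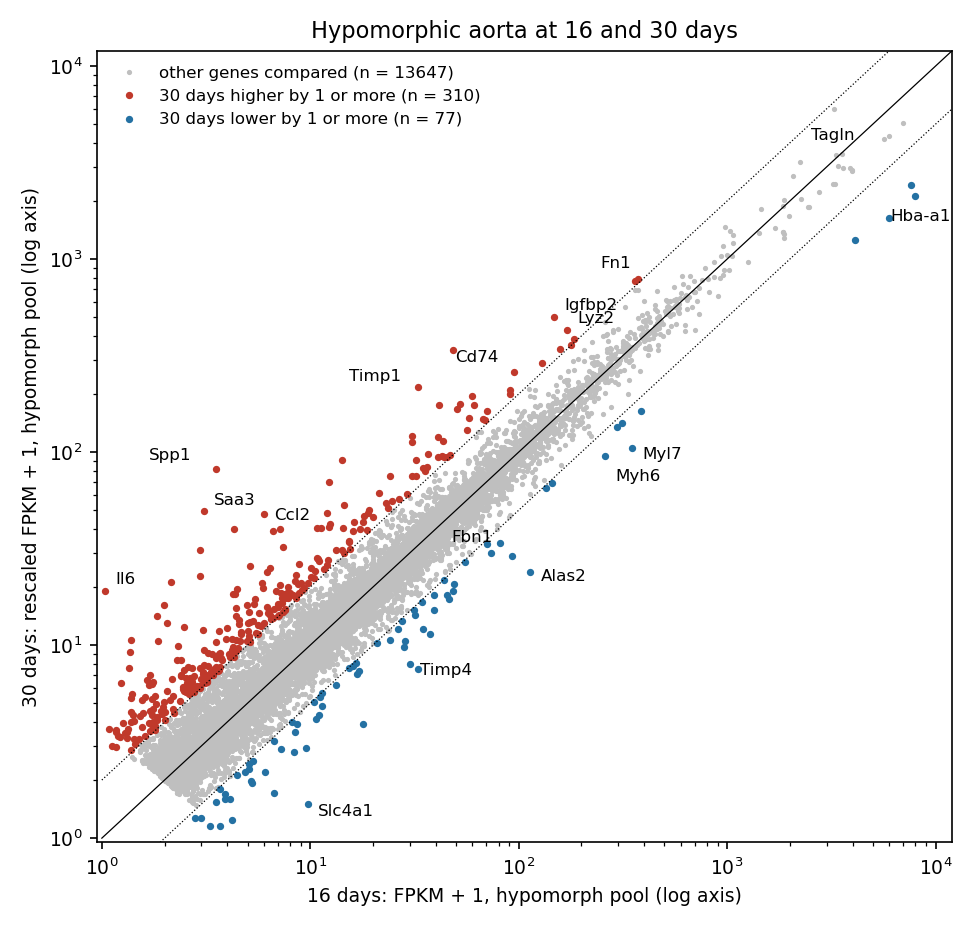
Pooled level of each compared gene in the hypomorph, FPKM + 1 at 16 days (horizontal, log axis) and rescaled FPKM + 1 at 30 days (vertical, log axis). Dotted lines mark a 2-fold difference. Red points (310) are genes called higher and blue points (77) genes called lower at 30 days, and Spp1, Il6 and Saa3 lie farthest above the line.

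The 3 largest age differences belonged to secreted proteins of inflammation and matrix repair. Spp1 (osteopontin, a matrix and cytokine-like protein of macrophages and activated smooth muscle, mm9 chr5:104864136-104870069) was at 2.52 FPKM at 16 days and 80.9 at 30 days, 32.1 times the earlier level. In wild type it was at 4.36 and 7.52. Il6, the interleukin that drives the acute-phase response (mm9 chr5:30339700-30346508), was near 0 in 3 of the 4 pools, at 0.0314 FPKM in the hypomorph at 16 days and 0.0732 and 0.0599 in wild type, and stood at 18.2 in the hypomorph at 30 days. Saa3, an acute-phase apolipoprotein (mm9 chr7:53967367-53971046), was at 2.09 and 48.3 FPKM, against 1.60 and 0.503 in wild type. For each of these 3 genes the 30-day hypomorph pool was the high pool of the 4. Il6 was under 1 FPKM at 16 days and passed the level filter through its 30-day value. That it stood higher was therefore fixed by the filter.

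Inflammatory cytokines, acute-phase proteins and their regulators were higher as a group. Of 40 genes on this list, 2 (Csf3 and Saa2) were listed at 0, 8 had a mean under 1 FPKM and 30 were compared. At 30 days 19 of the 30 were called higher and 0 lower, with a median age difference of 1.48 in the hypomorph and 0.098 in wild type. In wild type 3 of these members were called higher, where 1.17% of all genes were called higher and 1.38% lower. A low gene that passed the level filter through its 30-day value alone had to differ. Among the 22 members with at least 1 FPKM at both ages, 12 were called higher and the median was 1.20.

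Among the cytokines themselves, Il1b, the interleukin-1 released by activated macrophages, was at 0.834 FPKM at 16 days and 13.1 at 30 days. Its natural antagonist Il1rn was at 0.388 and 4.57 FPKM, and the decoy receptor Il1r2 at 0.217 and 2.36. Il1b, Il1rn and Il1r2, and Lif and Il11 below, were each under 1 FPKM at 16 days. They passed the level filter through the 30-day value, so standing higher was fixed by the filter. The signalling receptor Il1r1 went from 15.7 to 21.02 FPKM and was not called. Lif and Il11, cytokines that share a receptor subunit with Il6, were at 0.579 and 0.313 FPKM at 16 days and 3.47 and 2.57 at 30 days. Socs3, the feedback inhibitor of that receptor, was at 6.16 and 39.2 FPKM, against 5.60 and 5.28 in wild type. Il33, an alarm cytokine stored in the nuclei of stromal cells, was called higher in both genotypes, at 9.79 and 39.5 FPKM in the hypomorph and 10.4 and 23.4 in wild type.

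Effector and adhesion genes followed. Ptgs2 (cyclooxygenase-2, which makes prostaglandin precursors) was at 1.06 and 12.02 FPKM. Ptx3, a soluble pattern receptor whose span overlaps those of 2 other listed genes, was at 4.13 and 24.8. The leukocyte adhesion molecules Vcam1, at 23.2 and 74.5 FPKM, Sele, at 0.804 and 4.43, and Selp, at 9.59 and 23.2, were all called higher. Sele was under 1 FPKM at 16 days, so that it stood higher was fixed by the level filter. Icam1 was below the call, with an age difference of 0.89. Hp (haptoglobin), called higher in the hypomorph, was as high in wild type at 30 days, 90.5 FPKM against 85.2. The NF-kB inhibitor Nfkbia was at 58.8 and 46.4 FPKM and Cebpd, a regulator of acute-phase genes, at 64.2 and 61.9. Those 2 members were the only ones on the list below 0, and neither was called.

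Chemokines, the secreted attractants of leukocytes, formed the list with the largest number of calls beside the macrophage list. Of 34 ligands and receptors, 1 (Ccl20) was listed at 0, 7 had a mean under 1 FPKM, and 20 of 26 compared were called higher and 0 lower. The median age difference was 1.42 in the hypomorph and 0.068 in wild type, where 1 was called higher, Ccl11. Of 19 members with at least 1 FPKM at both ages, 13 were called higher, with a median of 1.14.

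The monocyte attractants Ccl2 and Ccl7 were at 4.97 and 3.33 FPKM at 16 days and 46.6 and 39.2 at 30 days. In wild type neither passed 1.99 FPKM at either age. The neutrophil attractants Cxcl1, Cxcl2 and Cxcl5 were at 1.13, 0.36 and 0.354 FPKM at 16 days and 20.3, 8.16 and 6.62 at 30 days. Cxcl10, an interferon-driven attractant of T cells whose span overlaps those of 3 other listed genes, was at 0.382 and 9.66. Cxcl2, Cxcl5 and Cxcl10 were under 1 FPKM at 16 days and passed the level filter through the 30-day value. Standing higher was thus fixed by the filter for them. Ccr2, the receptor for Ccl2 on blood monocytes, was called higher too, at 4.16 and 12.2 FPKM. Cxcl12, which stromal cells make constantly, was the most abundant ligand at 105 FPKM at 16 days and was not called at 163. Its receptor Cxcr4 was at 3.82 and 5.08 FPKM and was not called either.

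NF-kB, a factor that cytokines activate, is known to act at promoters of inflammatory genes. To show where its motif lies, the promoters are printed of the inflammation list's member and the 2 chemokine list members with the largest age differences among those whose window holds it, so the match is part of the choice. Sequences are from RefSeq (build GRCm38.p6), 250 bases up to the base before the annotated start, 5′ to 3′ on the gene's strand. Capitals mark matches of the motif on either strand: GGGA and CC separated by 4 bases of any kind. Il6 lies at chr5:30012864-30013113 on the plus strand with 2 overlapping matches, Cxcl1 at chr5:90890995-90891244 on the plus strand with 3 matches, of which a pair overlaps, and Cxcl10 at chr5:92348890-92349139 on the minus strand with 2.
Il6: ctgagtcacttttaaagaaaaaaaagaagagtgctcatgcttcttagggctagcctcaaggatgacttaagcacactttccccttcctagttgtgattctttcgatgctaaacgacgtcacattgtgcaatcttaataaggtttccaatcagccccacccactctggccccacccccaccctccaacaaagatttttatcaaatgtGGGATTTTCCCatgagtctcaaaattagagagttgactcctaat
Cxcl1: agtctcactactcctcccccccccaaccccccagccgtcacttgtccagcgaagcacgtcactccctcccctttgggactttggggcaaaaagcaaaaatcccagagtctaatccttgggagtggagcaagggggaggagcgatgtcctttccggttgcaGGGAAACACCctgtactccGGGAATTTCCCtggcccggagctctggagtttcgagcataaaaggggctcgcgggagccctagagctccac
Cxcl10: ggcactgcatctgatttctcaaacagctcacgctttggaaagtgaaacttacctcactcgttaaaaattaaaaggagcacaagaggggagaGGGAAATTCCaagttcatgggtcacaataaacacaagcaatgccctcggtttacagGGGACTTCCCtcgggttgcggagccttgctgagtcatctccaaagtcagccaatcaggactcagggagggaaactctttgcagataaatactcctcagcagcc
In windows of 250 bases before to 50 after the start, the motif was in 15 of 36 promoters of the inflammation list (41.7%), from 30 of its 40 genes. It was in 10 of 24 promoters of the chemokine list (41.7%) and in 20.7% of all 32851 promoters. Of the promoters of members called higher, 8 of 21 on the inflammation list and 6 of 12 on the chemokine list held it. The AP-1 motif TGANTCA was in 27.8% of the inflammation promoters, 12.5% of the chemokine promoters and 7.81% of all. The shares over whole lists describe the lists and not these data. A match is a run of letters and does not show that a factor was bound.

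Most macrophage genes were called higher. All 32 genes of the list were compared, 20 were called higher and 0 lower, and 30 stood above 0, with a median of 1.14 against 0.27 in wild type. Their summed level was 774 FPKM at 16 days and 1673 at 30 days, against 360.3 and 518 in wild type. The hypomorph was thus above wild type already at 16 days. In bulk tissue, more cells of a type and more RNA per cell cannot be told apart, here and in the lists below.

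Members differed among themselves. Cd14, the co-receptor for bacterial endotoxin, was at 6.43 and 31.1 FPKM, and Trem2, a lipid-sensing receptor, at 3.97 and 15.1. Lyz2, the macrophage lysozyme and the most abundant member, was at 170.2 and 430.0 FPKM. The pore-forming protein Mpeg1 was at 4.93 and 18.7 FPKM and the elastin-degrading cathepsin Ctss at 31.3 and 89.9, with 16.8 and 17.7 in wild type. Csf1r, the receptor on which most macrophages depend, was at 23.6 and 41.05 FPKM and was below the call. Of genes often used to mark resident arterial macrophages, Lyve1 was at 31.1 and 33.5 FPKM, Cd163 at 12.3 and 13.6, and the apoptotic-cell receptor Mertk at 28.2 and 25.6. F13a1, also typical of resident macrophages, was at 36.6 and 49.1. Gpnmb, a glycoprotein of lipid-laden macrophages, was at 6.76 and 5.72. None of these 5 was called, but they were chosen after their values were seen. The complement gene C1qa, a member named for its level, was called higher, at 90.1 and 198 FPKM. Resident and recruited markers were not listed apart, so these values do not separate such cells.

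**Figure D2:**
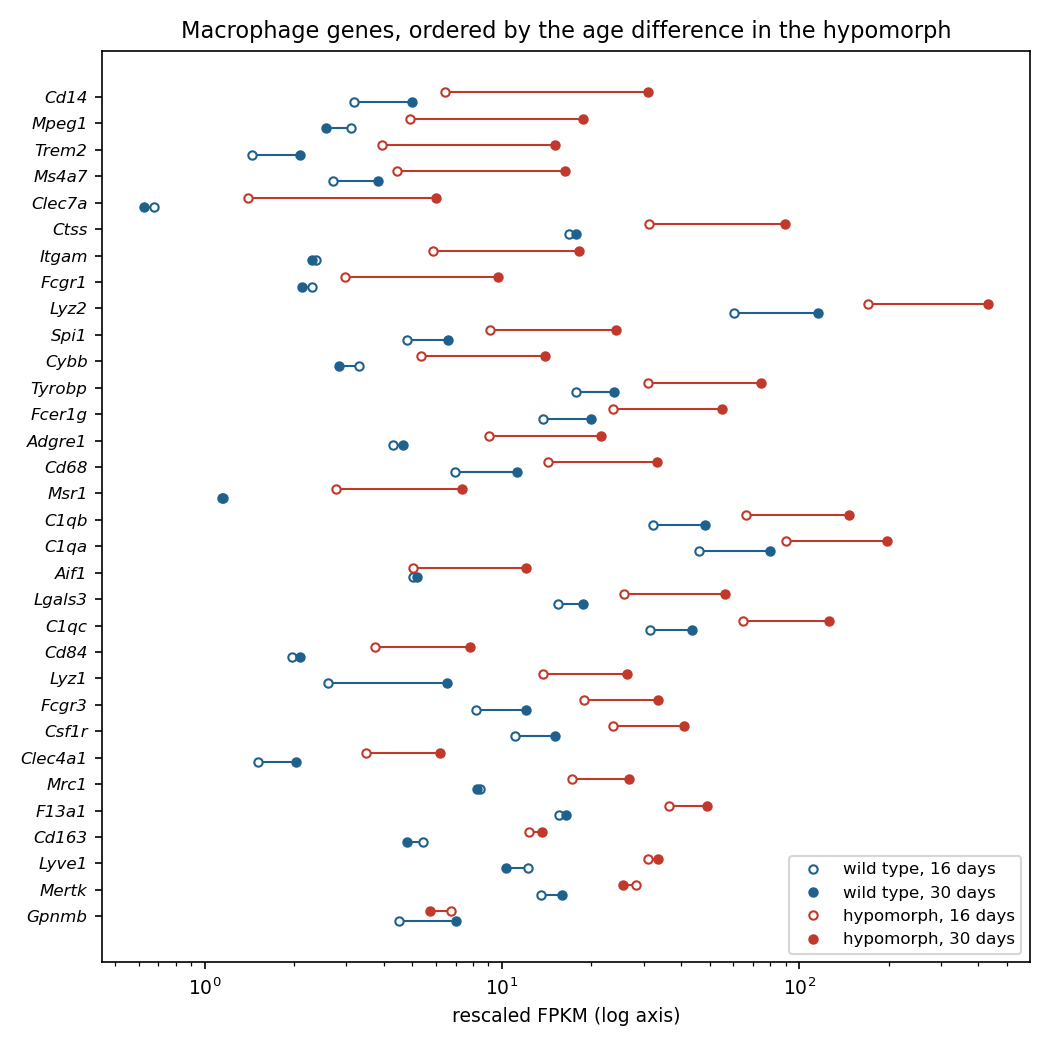
Levels of the 32 macrophage genes at 16 days (open circles) and 30 days (filled circles) in the hypomorph (red) and wild type (blue), in rescaled FPKM on a log axis, 1 pooled value per group. Genes are ordered by the age difference in the hypomorph, from Cd14 at the top to Mertk and Gpnmb, which stood lower at 30 days.

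Antigen presentation genes stood higher to differing degrees. All 16 compared genes stood above 0 in the hypomorph, 7 were called higher, and the median was 0.96 against -0.18 in wild type. The class II chain H2-Eb1 was at 40.1 and 119 FPKM in the hypomorph and 51.04 and 40.3 in wild type. Its companion Cd74, the invariant chain, was at 93.7 and 258, against 119.8 and 87.1. The class I chain H2-K1 was called higher, at 157 and 343 FPKM in the hypomorph, and was at 245 and 362 in wild type, where 0 members were called. Reads of these near-identical genes may be shared between them, so single members are uncertain. The co-stimulatory ligand Cd80 was called higher, at 0.931 and 3.53 FPKM, and Cd86 was not, at 2.88 and 5.15. Cd80 was under 1 FPKM at 16 days, so that it stood higher was fixed by the level filter.

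Lymphocyte genes were mostly low, as were neutrophil and mast cell genes in part. Of 29 lymphocyte genes matched, 24 had a mean under 1 FPKM, and 1 of 5 compared was called higher, the antibody light chain Igkc, at 2.52 and 7.54 FPKM. Over all genes 2.21% were called higher. In the neutrophil and mast cell list 5 of 11 compared were called higher, and of the 7 with at least 1 FPKM at both ages 2 were. Those were S100a8 and S100a9, the subunits of calprotectin, a major protein of neutrophils. S100a9 was at 1.94 FPKM at 16 days and 30.2 at 30 days in the hypomorph, and at 23.6 and 3.02 in wild type. S100a8 was at 1.97 and 21.7, against 17.8 and 2.17. The order of the genotypes was therefore opposite at the 2 ages, with wild type high at 16 days. Csf3r, the receptor for the neutrophil growth factor, was at 0.765 and 5.45 FPKM, while the neutrophil genes Ly6g and Elane were listed at 0 at either or both ages. Csf3r was under 1 FPKM at 16 days and passed the level filter through its 30-day value. Mast cell genes were not called, with Mcpt4 at 3.97 and 3.95 FPKM and Cma1 at 2.68 and 3.07.

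Interferon-stimulated genes, the antiviral programme, stood above 0 in the hypomorph with 1 exception. Of 37 compared, 14 were called higher and 0 lower, 36 stood above 0, and the median was 0.76, against -0.089 in wild type. The difference between the genotypes was not tested. Of the 33 with at least 1 FPKM at both ages, 10 were called higher. Irf7, the regulator that amplifies interferon production, was at 11.3 and 40.1 FPKM, against 13.8 and 10.5 in wild type. The viral RNA sensor Oas1a was at 1.59 and 6.73, and Ifit3, which blocks translation of viral RNA, at 7.54 and 22.1. Ifitm3, which keeps viruses from entering cells and was the most abundant member, was at 204 and 336 FPKM and was not called. The signalling factor Irf9 was at 14.9 and 19.7 FPKM and was not called. Igtp, a GTPase that answers mainly to interferon-gamma, was at 6.02 and 9.98 FPKM in the hypomorph and 21.99 and 8.59 in wild type, so the 30-day values lay near each other.

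Interferon acts through a response element, searched here as GAAA and a further GAAA separated by 2 bases of any kind, and the promoters of 2 called members that hold it are printed with the matches on either strand in capitals. Both follow RefSeq, GRCm38.p6, 250 bases up to the start. Oas1a lies at chr5:120907526-120907775 on the minus strand with 2 overlapping matches, and Ifit3 at chr19:34583279-34583528 on the plus strand with 2 matches, read here as the reverse complement.
Oas1a: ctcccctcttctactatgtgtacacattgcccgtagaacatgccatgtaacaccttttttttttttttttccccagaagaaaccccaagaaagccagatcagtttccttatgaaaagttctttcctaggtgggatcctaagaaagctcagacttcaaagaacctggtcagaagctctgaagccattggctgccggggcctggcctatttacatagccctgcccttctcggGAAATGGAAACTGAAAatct
Ifit3: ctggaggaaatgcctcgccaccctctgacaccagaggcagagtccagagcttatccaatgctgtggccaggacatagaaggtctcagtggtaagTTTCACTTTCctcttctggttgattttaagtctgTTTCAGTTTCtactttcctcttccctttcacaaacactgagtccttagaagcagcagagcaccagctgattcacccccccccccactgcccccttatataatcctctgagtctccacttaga
The element was in 20 of 37 promoters of the list (54.05%), from 32 of its 41 genes, and in 3.44% of all promoters. The list was made up of known interferon targets, so a high share is a property of the list and not of these data. Of the 9 promoters of members called higher, 5 held it.

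Cell cycle genes nearly all stood above 0, by amounts that mostly stayed below the call. Of 39 compared, 38 lay above 0, 6 were called higher and 0 lower, with a median of 0.71 in the hypomorph and -0.11 in wild type. Cdk1, the kinase that starts mitosis, was at 6.84 FPKM at 16 days and 18.9 at 30 days, against 6.05 and 5.54 in wild type. Cdc20, which triggers chromosome separation, was at 3.96 and 9.55, and Birc5 (survivin) at 3.41 and 8.29. The topoisomerase Top2a, at 7.10 and 15.1, and the proliferation marker Mki67, at 2.12 and 4.30, were below the call. Of the helicase subunits that open DNA for replication, Mcm5 was at 4.40 and 6.64 FPKM, Mcm6 at 19.4 and 19.8, and Mcm7 at 12.4 and 11.7, with no call. The clamp protein Pcna, the most abundant member, was at 51.6 and 59.9. Which cells divided cannot be read from whole tissue.

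The Cdk1 promoter is printed for the cell cycle homology region TTTGAA and the CCAAT box, through which mitotic genes are known to be regulated. Of members whose window holds both motifs, Cdk1 had the largest age difference, so the match is part of the choice. The printed promoter covers chr10:69352913-69353162 of GRCm38.p6 (RefSeq), minus strand, with both motifs in capitals on either strand, the box appearing as ATTGG.
Cdk1: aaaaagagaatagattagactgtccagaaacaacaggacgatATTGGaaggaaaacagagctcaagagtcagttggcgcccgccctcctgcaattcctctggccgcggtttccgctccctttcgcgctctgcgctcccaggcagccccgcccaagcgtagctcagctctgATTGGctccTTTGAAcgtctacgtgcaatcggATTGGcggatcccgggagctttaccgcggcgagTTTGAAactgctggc
TTTGAA was in 16 of 34 promoters of the list (47.1%) and 17.9% of all, and CCAAT in 27 (79.4%) and 37.4% of all. These counts use the window that runs to 50 bases after the start, and they describe the list and not these data.

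**Figure D3:**
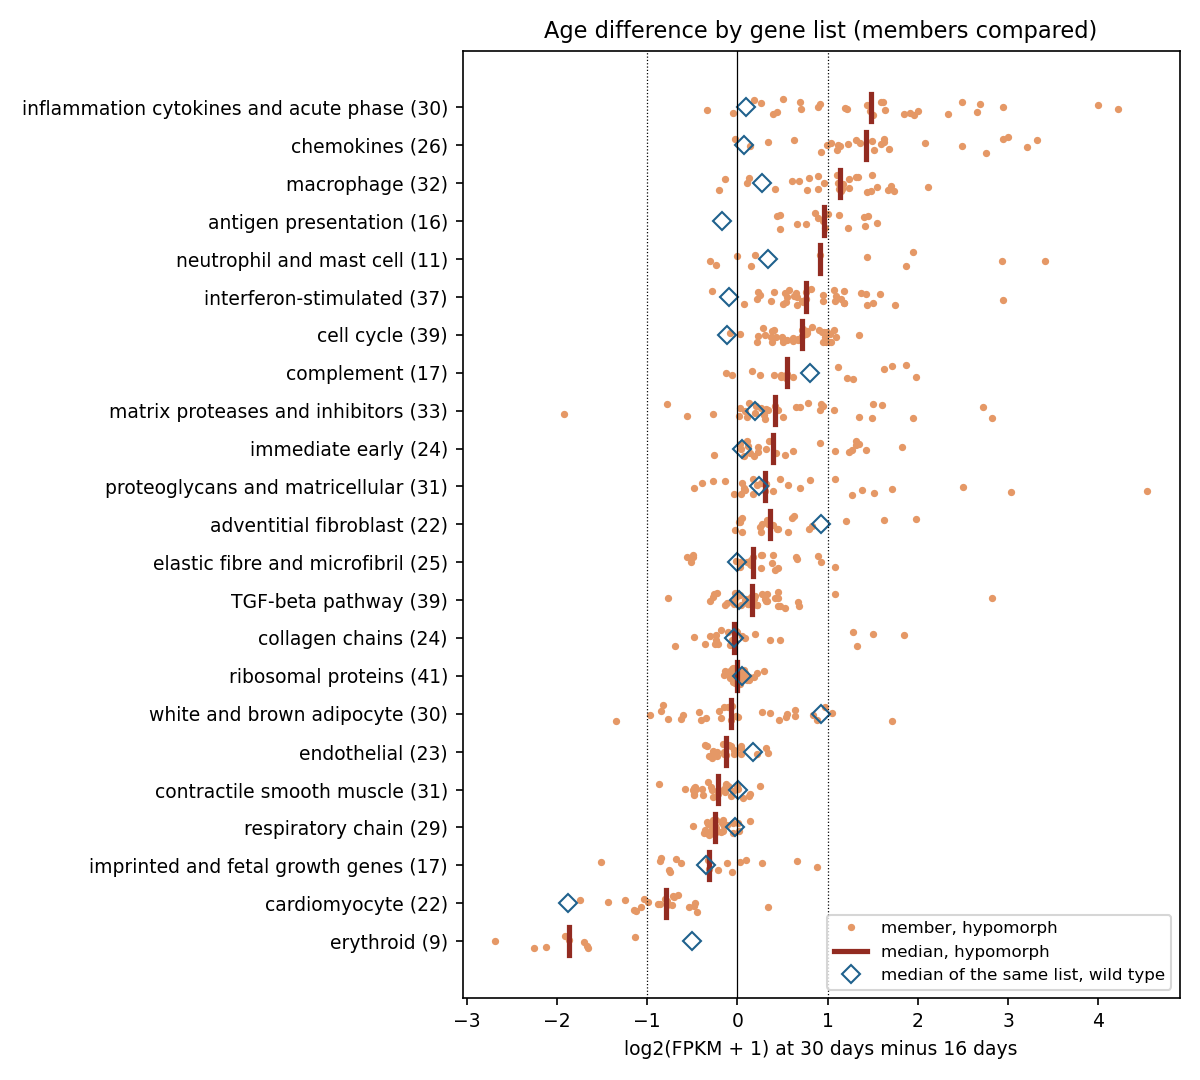
Age difference of each compared member (orange points) of 23 gene lists in the hypomorph, with the list's median in the hypomorph (red bar) and in wild type (blue diamond), in log2(FPKM + 1) at 30 days minus 16 days. Numbers in brackets are members compared. Dotted lines mark 1 and -1. The inflammation list has its median at 1.48, contractile smooth muscle at -0.21 and erythroid genes at -1.87.

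Proteases of the matrix and their inhibitors were higher in part. Of 33 compared, 8 were called higher and 1 lower, with a median of 0.42 against 0.20 in wild type. Timp1, a metalloprotease inhibitor, was at 31.9 and 217 FPKM, but its span overlaps those of 6 other listed genes. The activator Plau (urokinase) was at 5.50 and 12.7 FPKM and its receptor Plaur at 5.23 and 22.95, against 6.95 and 8.20 for the receptor in wild type. The sheddases Adam8 and Adam12 were at 2.11 and 1.05 FPKM at 16 days and 8.41 and 4.82 at 30 days. The gelatinase Mmp2, the most abundant metalloprotease compared at 30 days, was at 127 and 147 FPKM, and the macrophage elastase Mmp12 at 1.49 and 3.80; neither was called. Timp4, an inhibitor typical of heart and fat, was the member called lower, at 29.1 and 6.95 FPKM, against 12.1 and 9.73 in wild type.

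Matricellular proteins and proteoglycans, which sit in the matrix and tune cell behaviour, had 8 of 31 compared members called higher and 0 lower, with a median of 0.31. Besides Spp1, the hyaluronan synthase Has1 was at 0.981 and 15.2 FPKM and Cthrc1, a secreted protein of injured arteries, at 11.4 and 68.8. Has1 was under 1 FPKM at 16 days and passed the level filter through its 30-day value. Thbs1, the thrombospondin that can activate latent TGF-beta, was at 56.4 and 148 FPKM in the hypomorph and 96.1 and 56.5 in wild type. The CCN proteins Ccn1, at 60.1 and 174, and Ccn2, at 360.1 and 765, were called higher in the hypomorph, with age differences of 0.56 and 0.49 in wild type. Ccn5 was called higher in hypomorph and wild type, and its 30-day level was 166 FPKM in the former and 214 in the latter. Periostin (Postn), the most abundant member compared, was at 1068 and 1326 FPKM, and versican (Vcan) at 47.8 and 50.1, with no call. Another hyaluronan synthase, Has3, chosen by the size of its age difference, stood the other way, at 5.68 FPKM at 16 days and 0.709 at 30 days. Has3 was under 1 FPKM at 30 days and passed the level filter through its 16-day value.

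Collagen chains had a median near 0, with a few called higher, and Col1a1, Col1a2 and Col3a1 among those at 0 and not compared. Of 24 collagen chains compared, 4 were called higher and 0 lower, and the median was -0.042 in the hypomorph and -0.039 in wild type. Col8a1, a short-chain collagen of remodelling vessels, was at 10.2 and 39.4 FPKM, against 8.68 and 8.996 in wild type. Col12a1, which decorates collagen fibrils, was at 15.1 and 38.2, against 12.5 and 12.5. The other called chains, Col2a1 at 1.70 and 6.64 FPKM and Col11a1 at 1.77 and 5.95, are also cartilage genes. The basement membrane chains Col4a1 and Col4a2 were at 531 and 468 FPKM at 16 days and 503 and 436 at 30 days. Of 24 genes of collagen processing 0 were called in the hypomorph, which is near the share over all genes.

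Among genes of elastic fibres and microfibrils, 1 of 25 compared was called higher and 0 lower, with a median of 0.17 against -0.0014 in wild type. With 2.21% of all genes called higher and 0.549% lower, these counts are near the share over all genes. The called member was fibronectin (Fn1), on which microfibrils assemble, at 374 and 789.6 FPKM in the hypomorph and 278 and 309 in wild type. Fbln2, a fibulin of injured vessels, was at 111 and 211 FPKM and just below the call. The crosslinking enzyme Lox was at 233 and 251 FPKM in the hypomorph, while wild type was at 368 and 214. The microfibril-associated Mfap4 was at 327 and 334 FPKM, against 1305 and 1317 in wild type, and Mfap5 at 391 and 433, against 1179 and 869. Like Fbn1, both were lower in the hypomorph at the 2 ages. Ltbp4, a latent TGF-beta binding protein needed for elastic fibres, was at 729 and 520.0 FPKM.

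No contractile gene was called, which in a list of this size is near the share over all genes, 2.21% higher and 0.549% lower. Of 31 compared, 26 stood below 0 in the hypomorph, with a median of -0.21, against 0.0036 in wild type. Myl9, the regulatory myosin light chain, was at 3613 FPKM at 16 days and 2948 at 30 days in the hypomorph, and at 3572 and 5330.5 in wild type. Myh11, the smooth muscle myosin heavy chain, was at 678 and 563, against 643 and 863. For both genes the pools were close at 16 days and wild type was above the hypomorph at 30 days. Tpm1 (tropomyosin) stood lower in both genotypes, at 1265 and 961 FPKM and 1140.3 and 918. Myocd, the coactivator of the contractile programme, was at 71.4 and 51.1 FPKM, against 52.3 and 35.99. Casq2 and Pln, which heart muscle also makes, had the age differences -0.87 and -0.48. The CArG box, the site of the factor that Myocd assists, was in 4 of 36 promoters of the list (11.1%) and 1.63% of all. Such a share describes the list and not these data.

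In the TGF-beta pathway 2 of 39 compared genes were called higher and 0 lower, with a median of 0.16 against 0.018 in wild type. Over all genes 2.21% were called higher and 0.549% lower, and the counts of this list are near that share. The target Ccn2, described above, was among the called genes. The ligands Tgfb1, Tgfb2 and Tgfb3 were at 26.4, 29.8 and 63.6 FPKM at 16 days and 36.3, 43.3 and 76.8 at 30 days. The receptors Tgfbr1 and Tgfbr2 were at 22.99 and 36.3 FPKM and then 24.9 and 39.5. Inhibitory Smad7 was at 49.03 and 45.3, and Id1, a target of the BMP branch, at 117 and 67.9, an age difference of -0.77. No ligand or receptor was called.

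Growth factor and hormone genes held some of the larger differences. Igfbp2, a binding protein of insulin-like growth factors (mm9 chr1:72871076-72899048), was at 147 FPKM at 16 days and 503 at 30 days. Wild type was far lower at both ages, 12.6 and 31.03, and was also called higher. Igf2, the fetal growth factor, was called lower in both genotypes, at 33.7 and 11.2 FPKM in the hypomorph and 41.97 and 16.6 in wild type. Stc2, a secreted glycoprotein that restrains the release of insulin-like growth factors, was at 7.46 and 2.54 FPKM in the hypomorph and 8.57 and 9.65 in wild type. Of 17 imprinted and fetal growth genes 1 was called lower, with medians of -0.32 in the hypomorph and -0.35 in wild type. Over all genes 0.549% were called lower in the hypomorph. The long RNA H19 was at 26.8 and 21.3 FPKM in the hypomorph and 39.4 and 11.4 in wild type.

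Some transcription factors and stress genes were called. Immediate early genes, which cells switch on within minutes of a stimulus or of handling, had 8 of 24 members called higher, among them Junb at 15.1 and 42.2 FPKM, Myc at 3.40 and 9.60 and Nr4a3 at 3.40 and 14.5. Fos and Egr1, the classic members, were at 7.76 and 32.7 FPKM and then 12.5 and 38.4, with no call. The glucocorticoid and stress list went both ways, with 3 of 18 called higher and 3 lower, and a median of 0.35 against 0.12 in wild type. Of its members 11 stood above 0 and 7 below. Called higher were Lcn2, an iron-trap protein of inflammation, at 2.06 and 10.9 FPKM, the metal-binding Mt2 at 51.4 and 177, and Angptl4 at 9.89 and 26.8, the last also in wild type. On the lower side, Zbtb16 was at 36.6 and 10.4 FPKM, Fkbp5 at 42.6 and 20.7, Per1 at 69.8 and 32.5, and Tsc22d3 at 80.7 and 47.99. The first 3 were called lower, Fkbp5 only just, and in wild type Fkbp5 was at 23.7 and 36.6. Per1 is also a clock gene, and 1 of 18 clock genes was called lower and 1 higher, Bhlhe40. The shares over all genes were 0.549% lower and 2.21% higher. The hour of tissue collection is not given in the sources used here, and its part in these values was not tested.

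The genes called lower included markers of blood and of tissue around the aorta. All 9 compared genes of red cell precursors, of 12 matched, were called lower, with a median of -1.87 in the hypomorph and -0.50 in wild type. Some passed the level filter through the 16-day value alone, and all 6 with at least 1 FPKM at both ages were called lower, with a median of -1.89. Their summed level was 25805 FPKM at 16 days and 7452 at 30 days, against 9917 and 7879 in wild type. The 16-day hypomorph pool was thus the high pool, and the other 3 lay closer together. Slc4a1, the anion exchanger of red cells (mm9 chr11:102210137-102227517), was at 8.70 and 0.509 FPKM, and Alas2, the first enzyme of haem synthesis in these cells, at 112 and 22.8. The globin Hba-a1, nearly identical to Hba-a2, was at 7997 and 2119 FPKM. At 16 days it was thus listed above Myl9 and Tagln.

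Cardiomyocyte genes were called lower at 30 days in part in the hypomorph and mostly in wild type. In the hypomorph 7 of 22 compared were called lower, with a median of -0.79, and in wild type 19 were, with a median of -1.87. Their summed FPKM at 16 days were 2599 in the hypomorph and 2531 in wild type, and at 30 days 1222 and 559. Myl7, the atrial myosin light chain, was at 349 and 104 FPKM, against 307 and 59.9 in wild type. Tnnt2, cardiac troponin T, was at 386 and 162, against 438 and 79.4. Nppa, the atrial natriuretic peptide, differed between the genotypes in level, at 214 and 136 FPKM in the hypomorph and 14.3 and 15.8 in wild type. Skeletal muscle genes were mostly under 1 FPKM, 13 of 17, and Ckm and Eno3, which heart also makes, were called lower.

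Few fat genes were called in the hypomorph. Of 30 compared, 2 were called higher and 1 lower, with a median of -0.067, whereas in wild type 14 were called higher, with a median of 0.92. The shares over all genes were 2.21% higher and 0.549% lower in the hypomorph, and 1.17% higher in wild type. Adipoq, the hormone of fat cells, was at 16.6 and 30.6 FPKM in the hypomorph and 18.3 and 66.99 in wild type. Scd1, a desaturase of lipid synthesis, was at 45.8 and 95.8, against 29.3 and 307, and fatty acid synthase (Fasn) at 38.98 and 57.02, against 30.7 and 201. Ucp1, the heat-producing uncoupler of brown fat, was at 47.4 FPKM at 16 days and 18.1 at 30 days in the hypomorph, and at 70.6 and 67.8 in wild type. The brown fat genes Cidea and Cox8b were below the call, at 30.8 and 119 FPKM and then 17.7 and 65.9. The part of blood, heart and fat RNA in the differences of other lists was not tested.

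Adventitial fibroblast genes were called higher in part. In the hypomorph 3 of 22 compared were called higher, with a median of 0.37, against 11 and 0.92 in wild type. Pi16, a marker of fibroblast progenitors, was at 118 and 209.8 FPKM in the hypomorph and 149 and 574 in wild type. C7, a terminal complement component, was at 2.99 and 11.3, against 7.09 and 91.8. On the complement list, which shares C3 and C7 with the fibroblast list, 7 of 17 compared were called higher in the hypomorph and 6 in wild type. C3 was at 29.8 and 120.3 FPKM in the hypomorph and 21.3 and 113 in wild type. The anaphylatoxin receptors C5ar1 and C3ar1, found on macrophages, were at 6.004 and 3.37 FPKM and then 15.3 and 8.43, against 2.38 and 1.47 and then 2.78 and 1.52 in wild type. Of 23 endothelial genes 0 were called, near the share over all genes, with medians of -0.12 in the hypomorph and 0.17 in wild type.

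Several cell functions held no called gene in the hypomorph. These were the 41 ribosomal proteins (median -0.0094), 23 genes of the unfolded protein response (0.021), 22 of cholesterol synthesis (0.07), and 24 of glycolysis and hypoxia (0.0079). With 2.21% of all genes called higher and 0.549% lower, no call in lists of this size is near the share over all genes. The 29 respiratory chain genes were not called either, but 26 of them stood below 0, with a median of -0.25, against -0.025 in wild type. Atp5b, a subunit of ATP synthase, was at 818 and 671 FPKM. Among receptors and vasoactive peptides 0 of 25 were called, also near the share over all genes. The angiotensin receptor Agtr1a was at 3.27 and 2.25 FPKM and the converting enzyme Ace at 129.8 and 152.

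Set against wild type over the same ages, the genes called higher in the hypomorph were mostly not called in wild type. Of 308 such genes with wild-type values, 37 (12.01%) were called higher in wild type as well, and the median age differences were 1.28 in the hypomorph, where it was the basis of choice, and 0.18 in wild type. Of 76 genes called lower, 35 (46.1%) were called lower in wild type, with a wild-type median of -0.83. As shares of the wild-type lists, these were 24.7% of 150 genes called higher and 20.7% of 169 called lower. Over all genes compared, 1.17% were called higher and 1.38% lower in wild type, and 2.21% and 0.549% in the hypomorph. The overlaps thus lay above the shares over all genes. Across 14017 genes the age differences of the genotypes had Pearson's r 0.43 and Spearman's rho 0.42. The genotypes share no libraries, but they share the tables, so an effect of a table enters both sides. Long transcripts stood lower at 30 days in wild type (rho -0.32 with transcript length over 13463 genes) more than in the hypomorph (rho -0.11).

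The age difference of the hypomorph exceeded that of wild type by at least 1 for 339 of 14017 genes (2.42%) and was below it by at least 1 for 110 (0.785%). These differences have no test. The largest on the high side were S100a9 (6.02), S100a8 (5.51), Saa3 (4.79), Il6 (4.23) and Spp1 (3.87). For S100a8 and S100a9 the high wild-type value at 16 days contributed, whereas for Il6 and Spp1 wild type was low at both ages. On the low side stood genes that were much higher at 30 days in wild type. Sparcl1, a matricellular relative of Sparc, was at 192 and 217 FPKM in the hypomorph, against 70.5 and 497 in wild type, and Tnmd, a membrane protein of tendon and fat, at 1.96 and 2.65, against 1.87 and 11.6. The fat genes Scd1, Fasn, Thrsp and Pck1 were on this side as well, as was C7.

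**Figure D4:**
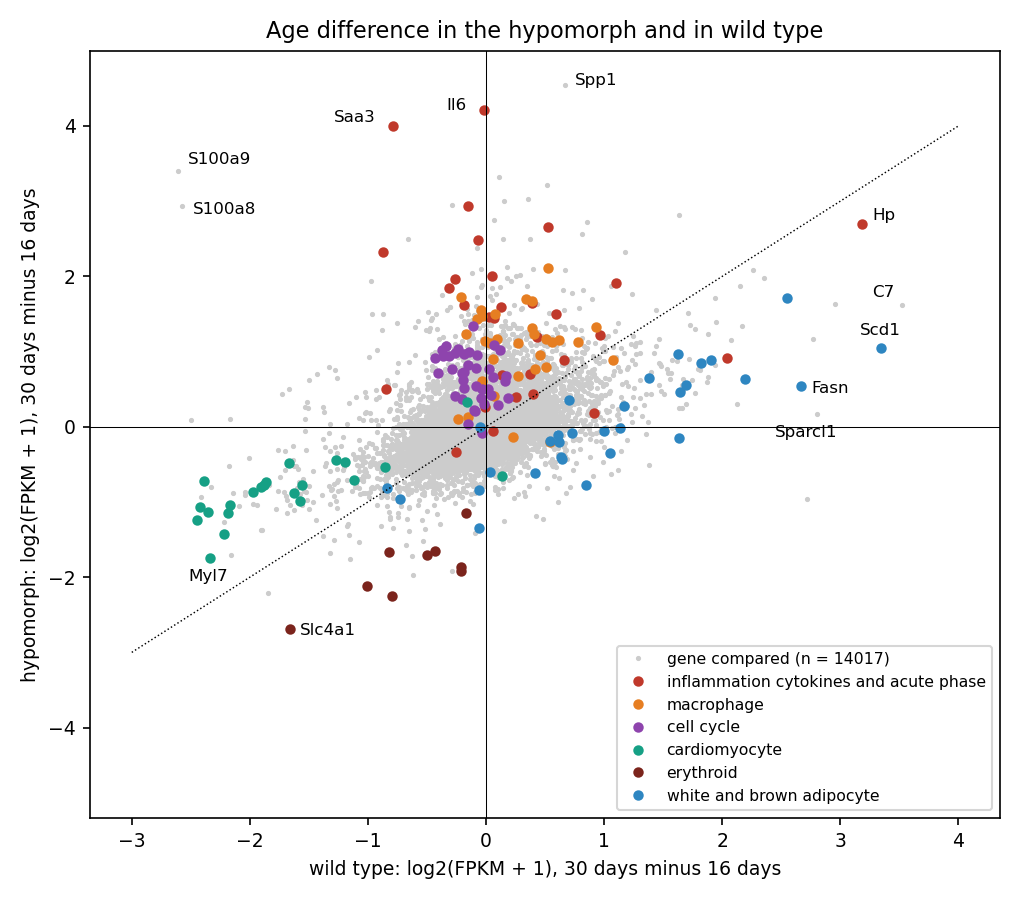
Age difference of each of 14017 genes in wild type (horizontal) and in the hypomorph (vertical), both in log2(FPKM + 1) at 30 days minus 16 days, with members of 6 lists in colour. The dotted line marks equal differences. Most inflammation and macrophage genes lie above it, most cardiomyocyte genes are below 0 in both genotypes, and most fat genes lie to the right of it.

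At 60 days the hypomorph values come from a table of their own, and a difference between 30 and 60 days shares the 30-day pool with the values above, so levels are only set side by side. Spp1 was at 2.52, 80.9 and 146 FPKM at 16, 30 and 60 days, and Saa3 at 2.09, 48.3 and 66.6. Cd74 was at 93.7, 258 and 1041, and B2m, the light chain of class I molecules, at 372, 694 and 1109. Other genes had their high value at 30 days: Il6 was at 6.69 FPKM at 60 days, Ccl2 at 20.6, Cxcl1 at 8.60, Has1 at 3.81, Thbs1 at 74.2 and Cdk1 at 8.14. Igfbp2 was at 942 FPKM at 60 days and the antibody chain Igkc at 347. Cardiac Myh6 was at 258, 94.9 and 45.6 FPKM, and Alas2 at 112, 22.8 and 20.4. Fbn1 was at 24.8 FPKM at 60 days.

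**Figure D5:**
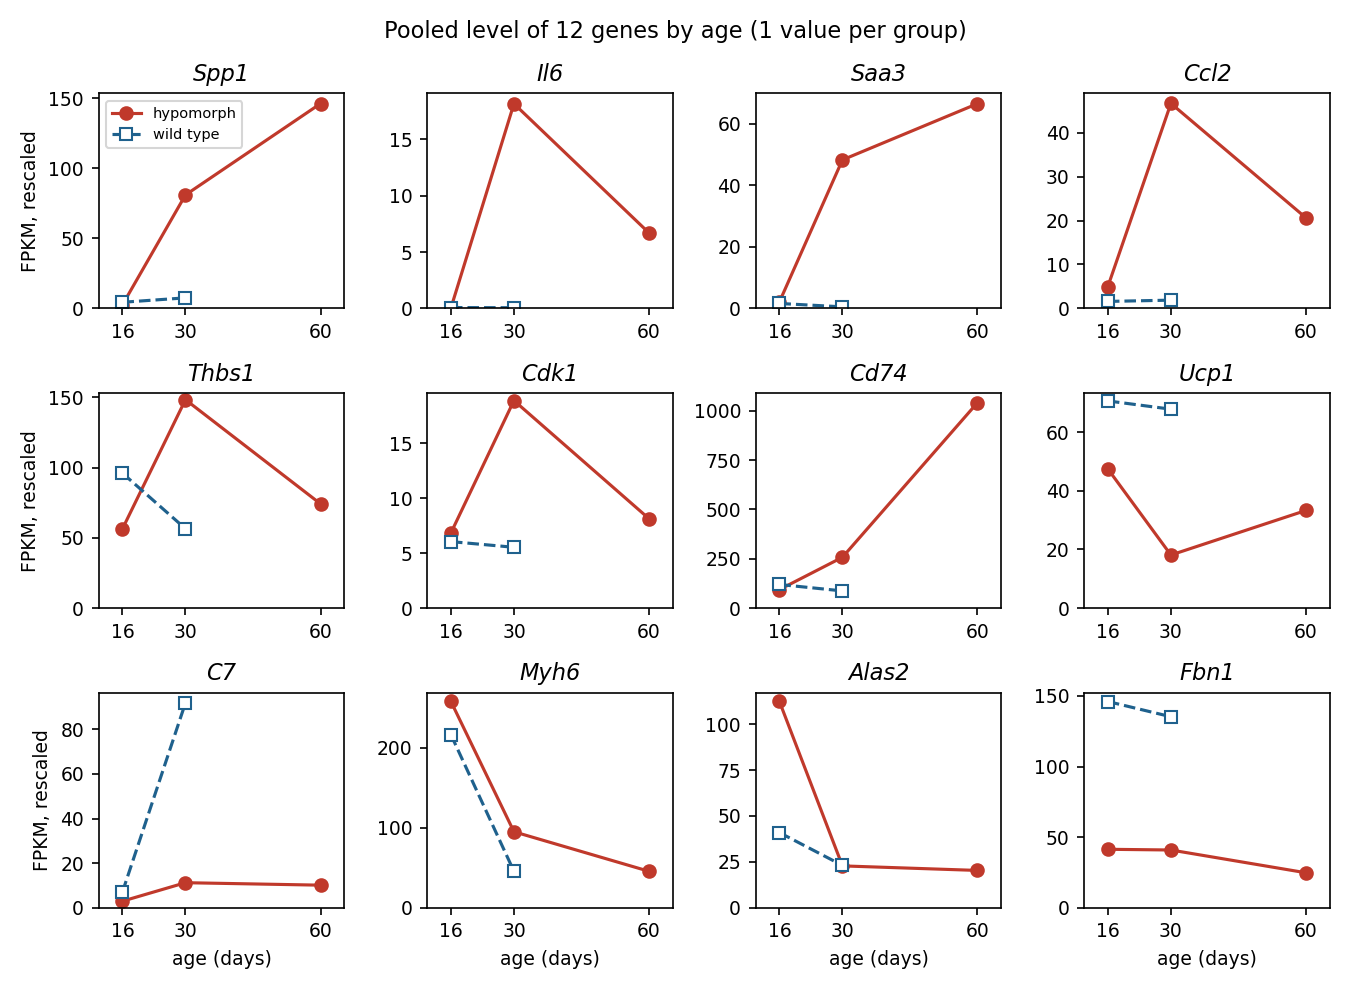
Pooled level of 12 genes at 16, 30 and 60 days in the hypomorph (red) and at 16 and 30 days in wild type (blue), in rescaled FPKM on axes from 0, 1 value per group with no error. Il6, Ccl2, Thbs1 and Cdk1 peak at 30 days in the hypomorph, Spp1, Saa3 and Cd74 are highest at 60 days, and C7 is high in wild type at 30 days.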

How the data were processed

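RNA of aorta was made into strand-marking polyadenylated libraries and sequenced in pairs, per the labels' protocols. The submitters' processing notes name the mouse build mm9, the aligner TopHat2 2.0.8 with Bowtie2 2.1.0, and also Cufflinks 1.3.0 and SAMtools 0.1.7, without settings. The authors' deposited tables hold 1 FPKM value per gene and group. Wild-type values of 30 days were listed 3 times, and where the listings differed (17 genes) the larger was kept. Left out were 2 groups of rows that match no sample label. Of 37668 genes, 32638 matched a symbol.

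The wild-type values of 30 days were multiplied by 1.01012 and the hypomorph values of 60 days by 1.00784. The log2 scale used a pseudocount of 1. The 37 gene lists hold 929 symbols, of which 921 matched. The comparison and the lists were chosen with earlier results of these data known. Named genes are Fbn1, the 12 genes highest and 12 lowest by age difference, 2 members per list by size and 2 by level, and the 8 largest differences between genotypes in each direction, without predicted models; not every such gene is printed, and members named beyond these were chosen after their values were seen. Some genes are not reported here. The calculation was tested on simulated data. The software was pandas 2.3.3 and numpy 2.4.6 under Python 3.11.15, with plots by matplotlib 3.10.9.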

Additional observations from a re-analysis of the deposited data

How the results depend on the processing

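No paired analysis was possible because the tables hold pooled values with no libraries, and for the same reason leaving out a library was not run. Counts are given as genes called higher and lower in the hypomorph, higher and lower in wild type, and with the difference between genotypes above and below the threshold, which were 310, 77, 163, 192, 339 and 110. With a pseudocount of 0.1 they were 519, 159, 262, 352, 557 and 180, with plain ratios 555, 180, 273, 381, 600 and 198, and with a 1.5-fold threshold 885, 395, 539, 635, 910 and 440. A mean of at least 5 FPKM gave 193 higher in the hypomorph, 103 lower in wild type, and 168 above and 71 below for the difference; rescaling by summed FPKM gave 70 below. Requiring the authors' status OK in both tables, an alternative chosen after seeing the data, left 7249 genes and gave 166, 32, 100, 115, 186 and 66. The other counts under these settings, and all 6 with no rescaling, with the wild-type factor for both genotypes, with no filter on level and with at least 1 FPKM at both ages, stayed within 1.5 times. The setting of at least 1 FPKM at both ages was also chosen after seeing the data. With a mean of at least 5 FPKM the list medians of thymocyte genes (-0.53, from 0.17) and Schwann cell and neuron genes (0.31, from -0.18) reversed; in all they have 3 and 12 members compared. No other list median of at least 0.1 in size reversed under any setting run. Some moved by over 1.5 times. The median of imprinted and fetal growth genes (-0.32) was -0.17 with no filter on level and -0.51 with status OK, which also gave 0.47 for proteoglycans and matricellular proteins, 0.58 for adventitial fibroblast and 0.83 for complement genes. The endothelial median (-0.12) was -0.076 with rescaling by summed FPKM and -0.081 with at least 5 FPKM. Lists with few members compared moved most with the filter and pseudocount: neutrophil and mast cell genes (0.92) lay between 0.15 and 3.17, lymphocyte genes (0.39) between 0.16 and 0.79, and with no filter skeletal muscle was -0.015 (from -1.03), thymocyte 0.0038 and Schwann cell and neuron -0.10. Depth is unknown, so differences of genes at a few FPKM have no known precision.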
